A study of Drosophila melanogaster with 4 samples.

Results

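Odorant-binding proteins are small secreted carriers of the fly, and the 44 genes described here are those of the deposited gene table whose symbol was Obp followed by a number, or lush, out of 13990 genes. Of these members, 28 lay on 2R, 1 on 2L, 5 on X, 9 on 3R and 1, lush, on 3L. Messenger RNA had been sequenced from adult Drosophila melanogaster males aged 0 to 16 hr and grown at 25 °C. The 4 groups were the V966M homozygote (V966M/V966M), the V966M heterozygote (V966M over TM3,twi-GFP,Sb,Ser), the 51B homozygote (51B/51B) and the 51B heterozygote (51B over TM3, Ser, y+). V966M and 51B are alleles of Ago2 (AGO2 in the table), the gene of the Argonaute protein that carries small interfering RNAs; 51B is known as a deletion and V966M names a missense change. TM3 is a rearranged chromosome 3 that suppresses recombination. Each heterozygote therefore had 1 copy of every chromosome 3 gene from a balancer, the balancers of the stocks differed in their markers, and no group was free of an Ago2 mutant allele. Which body parts were taken, and how many flies, is not given in the sources used here.

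In the antenna and in taste organs, support cells secrete odorant-binding proteins into the fluid around the sensory dendrites, where they bind odorants and other hydrophobic ligands. The best known is lush, needed for the response of antennal neurons to the male pheromone cis-vaccenyl acetate. Other members are made outside sense organs, in glia, in fat tissue or in the male reproductive tract, whose products enter the seminal fluid. Members are also sorted by their cysteines: the Minus-C group has lost part of the conserved set, the Plus-C group has additional ones, and dimer members hold a doubled domain.

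The table held 1 value per gene and genotype, in FPKM (mapped fragments scaled to the length of the transcript and the size of the library), with a lower and an upper bound that are given in parentheses below. No replicate check or test was possible with a single value each, and the deposited interval was the only measure of error. Summed FPKM over all genes ran between 493829 and 645245, and read depth is unknown. AGO2 had 6.33 FPKM (4.504 to 8.16) in the 51B homozygote and 46.5 FPKM (39.7 to 53.3) in the 51B heterozygote. It had 101 FPKM (83.4 to 118) in the V966M homozygote and 150 FPKM (111 to 189) in the V966M heterozygote. Of 19 seminal fluid and male tract genes listed as markers, 17 were in the table, each with a mean of at least 11.4 FPKM, while the antennal co-receptor gene Or83b had between 3.15 and 4.93 FPKM.

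The family spanned levels from near 0 to 2225 FPKM. Obp99c, of the Minus-C group, had the highest mean, 1426 FPKM, and made up between 31.7% and 48.0% of the members' summed FPKM, depending on the genotype. Obp44a, a Minus-C gene known from glia, followed with a mean of 632 FPKM. Obp56g, a seminal fluid protein gene needed for the mating plug, averaged 540 FPKM. Next came Obp99b, also called turn on sex-specificity and known from fat tissue of the head, with 407 FPKM, and Obp99a, an antennal member, with 137 FPKM. These 5 genes held 84.3% of the members' summed FPKM in the V966M homozygote and 82.9% in the V966M heterozygote, and 90.9% in the 51B homozygote and 83.7% in the 51B heterozygote.

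Most members were far lower. In the 51B homozygote, 5 members were at or above 100 FPKM, 9 between 10 and 100 FPKM, 16 between 1 and 10 FPKM, 11 below 1 FPKM and 3 listed at 0. In the V966M homozygote the same classes held 5, 9, 18, 8 and 4 members. The 12 Plus-C members were low: their mean levels had a median of 1.07 FPKM and a maximum of 8.72 FPKM, in Obp49a, a taste gene through which bitter compounds suppress the sweet response. The 6 Minus-C members had a median mean level of 272 FPKM and a minimum of 6.34 FPKM, in Obp8a. Levels per length can be set beside each other between genes, but 11 members share their locus in the table with another gene, and for these the division of fragments within the locus is uncertain.

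All 44 members had status OK in every genotype. Changes were computed for the 32 members with a mean of at least 1 FPKM, and 12 members fell below that level. Just inside it were Obp58c with a mean of 1.04 FPKM and Obp58b with 1.098 FPKM. Just outside was Obp56h, a gene known to affect male courtship, with a mean of 0.994 FPKM. It had 0.339 FPKM (0.0823 to 0.595) in the 51B homozygote and 1.01 FPKM (0.418 to 1.60) in the 51B heterozygote. The V966M homozygote had 1.41 FPKM (0.739 to 2.09) and the V966M heterozygote 1.22 FPKM (0.611 to 1.82). The other 11, among them the taste genes Obp57d and Obp57e, had means between 0.0107 FPKM, in Obp47b, and 0.490 FPKM, in Obp19c.

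**Figure D1:**
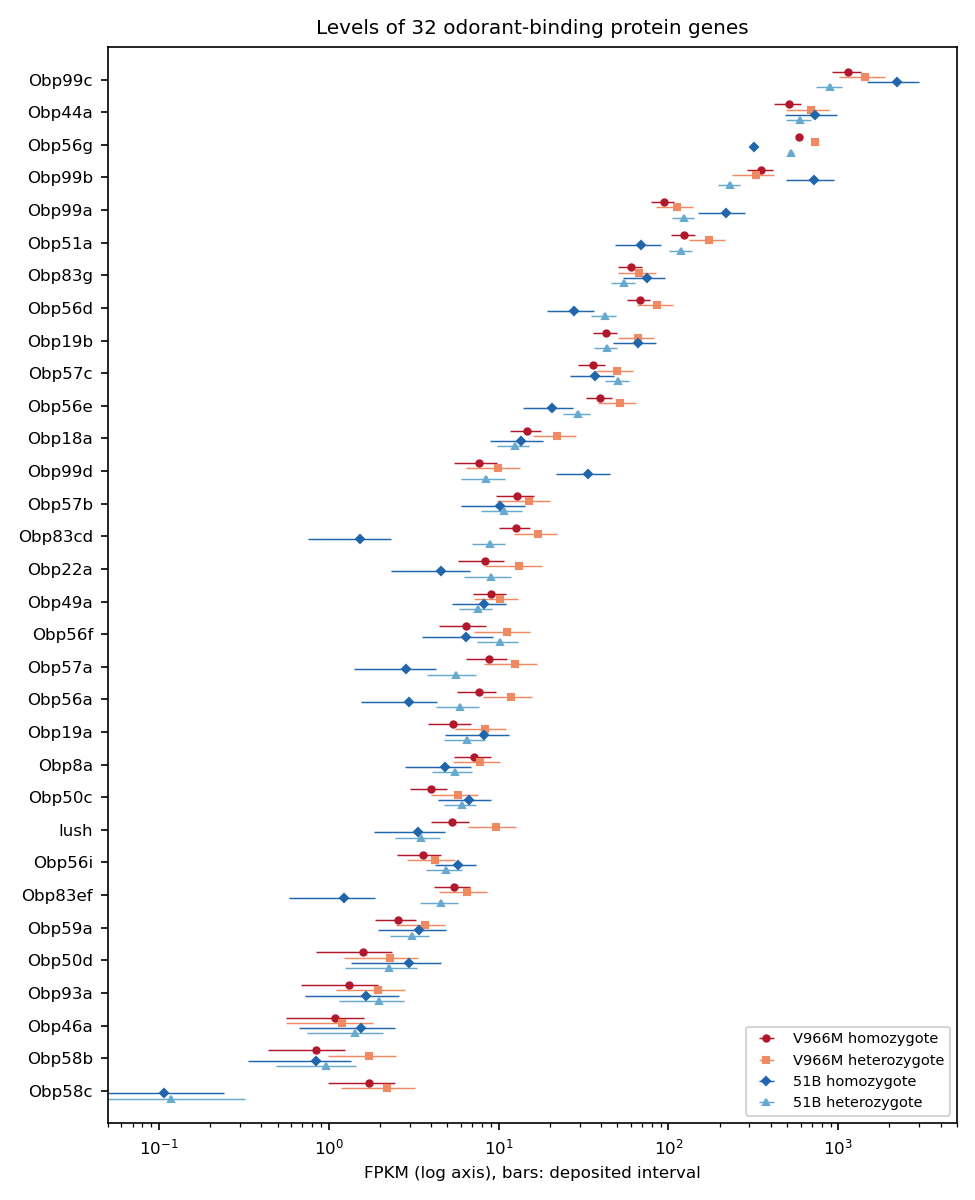
FPKM of the 32 analysed members on a log axis, in order of their mean, with 1 point per genotype and bars for the deposited interval (bars of Obp58c in 51B run to 0, off the axis). Obp99c is on top with up to 2225 FPKM, and the 51B homozygote stands to the right of the other genotypes in Obp99c, Obp99b, Obp99a and Obp99d and to their left in Obp83cd and Obp83ef.

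The genotypes were not evenly placed. Over the 32 analysed members, the V966M heterozygote was the highest of the 4 genotypes in 20 members and the lowest in 0, and the 51B homozygote was the highest in 10 and the lowest in 13. The V966M homozygote was the highest in 0 and the lowest in 14. For 16 members the highest genotype was under 2-fold above the lowest, and the largest ratios were those of Obp58c (20.5-fold), Obp83cd (11.2-fold), Obp83ef (5.27-fold), Obp99d (4.40-fold) and Obp57a (4.39-fold).

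The question put to each stock was how members differed between the homozygote and its balanced heterozygote. In the 51B stock, 3 genes of the Obp99 cluster were higher in the homozygote and both genes of the Obp83 dimer pair were lower, and all 5 lie on 3R. A call required at least a 2-fold change on the log2(FPKM + 1) scale and, besides, deposited intervals without overlap. By this rule 3 of the 32 members were higher, against 1.69% of all 10872 analysed genes, and 2 were lower, against 1.12%. The median log2 change was -0.03 for the members and 0.07 for all genes. Intervals did not overlap in 8 of the 32 members, against 12.0% of all genes.

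Obp99d had 33.6 FPKM (21.8 to 45.5) in the 51B homozygote and 8.45 FPKM (6.02 to 10.9) in the 51B heterozygote. It had 7.64 FPKM (5.44 to 9.84) in the V966M homozygote and 9.94 FPKM (6.43 to 13.5) in the V966M heterozygote. The 51B homozygote stood alone, above the intervals of the other 3 genotypes, which overlapped each other. The level was 3.98-fold higher in the 51B homozygote than in its heterozygote, a log2 change of 1.87.

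Obp99b had 719 FPKM (492 to 945) in the 51B homozygote and 230.5 FPKM (196 to 265) in the 51B heterozygote, 3.12-fold higher with a log2 change of 1.64. In the V966M stock it had 353 FPKM (291 to 415) in the homozygote and 328 FPKM (237 to 419) in the heterozygote. Here too the interval of the 51B homozygote lay above those of the other 3 genotypes.

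Obp99c had 2225 FPKM (1468 to 2981) in the 51B homozygote and 899 FPKM (740 to 1058) in the 51B heterozygote, 2.47-fold higher with a log2 change of 1.31. It had 1139 FPKM (917 to 1361) in the V966M homozygote and 1440 FPKM (1005 to 1875) in the V966M heterozygote. As deposited, the interval of the 51B homozygote was above that of the V966M homozygote but overlapped that of the V966M heterozygote. With bounds rescaled by the factors given with the processing below, it overlapped both. Obp99c shares its locus with Gycalpha99B, a guanylyl cyclase subunit gene, which had 14.8 FPKM (10.8 to 18.7) in the 51B homozygote and 10.3 FPKM (8.68 to 12.0) in the 51B heterozygote.

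The fourth gene of the cluster, Obp99a, had 217 FPKM (150.2 to 284) in the 51B homozygote and 123 FPKM (105 to 141) in the 51B heterozygote. These intervals did not overlap, and the log2 change of 0.81 was short of the threshold. The V966M homozygote had 93.7 FPKM (79.1 to 108) and the V966M heterozygote 112 FPKM (85.0 to 140). All 4 genes of the cluster, which are all Minus-C members, were thus above their 51B heterozygote with intervals apart as deposited. With rescaled bounds, the intervals of Obp99a overlapped in 51B. The summed level of the 4 genes was 3194 FPKM in the 51B homozygote and 1261 FPKM in the 51B heterozygote. In V966M the summed level was 1594 FPKM in the homozygote and 1890 FPKM in the heterozygote.

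The cluster runs over 45151 bp of 3R, from 25497382 to 25542532 in dm3, in the order Obp99a, Obp99c, Obp99d, Obp99b. Obp99d (25540261 to 25540674) and Obp99b (25541974 to 25542532) flank Dup99B, a gene of a sex peptide-like peptide made in the ejaculatory duct, which begins 51 bp past the end of Obp99d. Dup99B had 167 FPKM (123 to 211) in the 51B homozygote and 233 FPKM (198 to 267) in the 51B heterozygote, with a log2 change of -0.48. It was therefore not called, while both of its neighbours were higher. In V966M it had 470 FPKM in the homozygote and 519 FPKM in the heterozygote, higher than 51B at both zygosities, and after rescaling between homozygotes alone. The table does not name strands, and reads of adjoining genes were assigned by the authors' software.

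Within 25 kb of Obp99b, 10 other genes were analysed: 0 were higher in the 51B homozygote and 1 was lower, and their log2 changes ran from -1.04 to 0.59 with a median of -0.09. The lower gene was CG18731, 8217 bp from Obp99b, with 3.99 FPKM (2.19 to 5.80) in the 51B homozygote and 9.27 FPKM (6.94 to 11.6) in the 51B heterozygote. Within 25 kb of Obp99c, 5 other genes were analysed, with 0 called and changes from 0.06 to 0.48.

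Obp83cd had 1.53 FPKM (0.750 to 2.31) in the 51B homozygote and 8.94 FPKM (7.01 to 10.9) in the 51B heterozygote, 5.84-fold lower with a log2 change of -1.97. It had 12.7 FPKM (10.1 to 15.3) in the V966M homozygote and 17.2 FPKM (12.3 to 22.0) in the V966M heterozygote. The interval of the 51B homozygote lay below those of the other 3 genotypes, and as deposited the heterozygotes of both stocks did not overlap either. With rescaled bounds the heterozygotes overlapped.

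Obp83ef, the other dimer member, had 1.23 FPKM (0.583 to 1.88) in the 51B homozygote and 4.61 FPKM (3.46 to 5.76) in the 51B heterozygote, 3.74-fold lower with a log2 change of -1.33. Its levels in V966M were 5.46 FPKM (4.16 to 6.76) in the homozygote and 6.498 FPKM (4.44 to 8.55) in the heterozygote. Both genes have the locus from 1933856 to 1936740 on 3R, so how fragments were split between them is uncertain. With a pseudocount of 5 FPKM, Obp83ef was no longer called.

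Obp83g begins 652 bp past that locus (1937392 to 1938019) and was not called. It had 74.3 FPKM (53.7 to 95.0) in the 51B homozygote and 54.6 FPKM (45.97 to 63.2) in the 51B heterozygote, with overlapping intervals and a log2 change of 0.44. The other analysed genes within 25 kb were Gasp, a tracheal and cuticle chitin-binding gene, with a log2 change of -0.05, and CG1076, with -0.09.

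**Figure D2:**
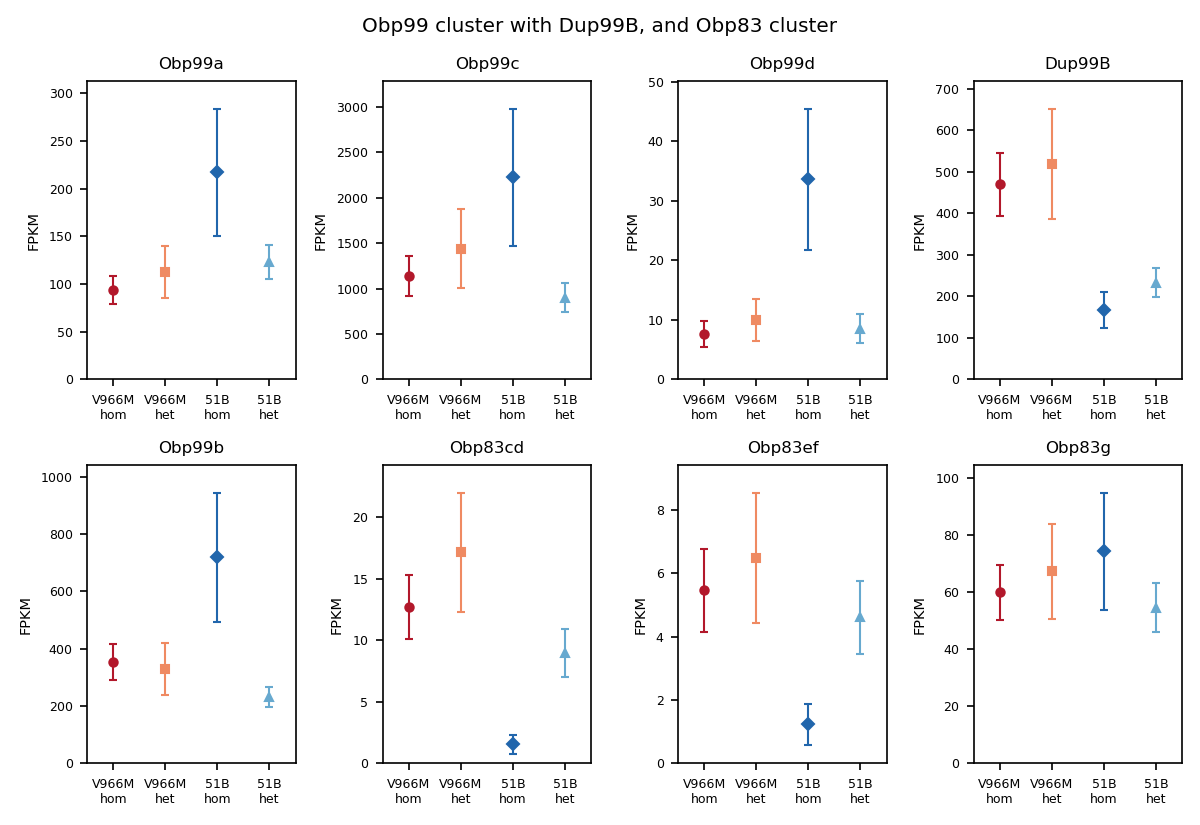
FPKM by genotype, with 1 point per genotype and bars for the deposited interval, for the 4 genes of the Obp99 cluster with Dup99B in their order on 3R, and for the 3 genes of the Obp83 cluster. The 51B homozygote is the highest genotype in the 4 Obp99 genes and the lowest in Dup99B, Obp83cd and Obp83ef.

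On chromosome 3, 9 members were analysed, of which 3 were higher, 2 lower and 4 not called in 51B. Of all 4783 analysed genes on chromosome 3, 2.07% were higher and 1.38% lower. Of the 23 members on other chromosomes, 0 were higher and 0 lower, against 1.40% and 0.92% of the 6089 genes there. The median log2 change was 0.44 for the members on chromosome 3, where all genes had a median of 0.07. For the members elsewhere it was -0.08, where all genes had 0.08. The chromosome 3 median came from few genes in both directions and moved with the choice of members: it was -0.05 once family genes held under older symbols were added. Since only heterozygotes carry TM3, a difference between homozygote and heterozygote on chromosome 3 cannot be told apart from a difference between the balancer's copy and the stock's.

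**Figure D3:**
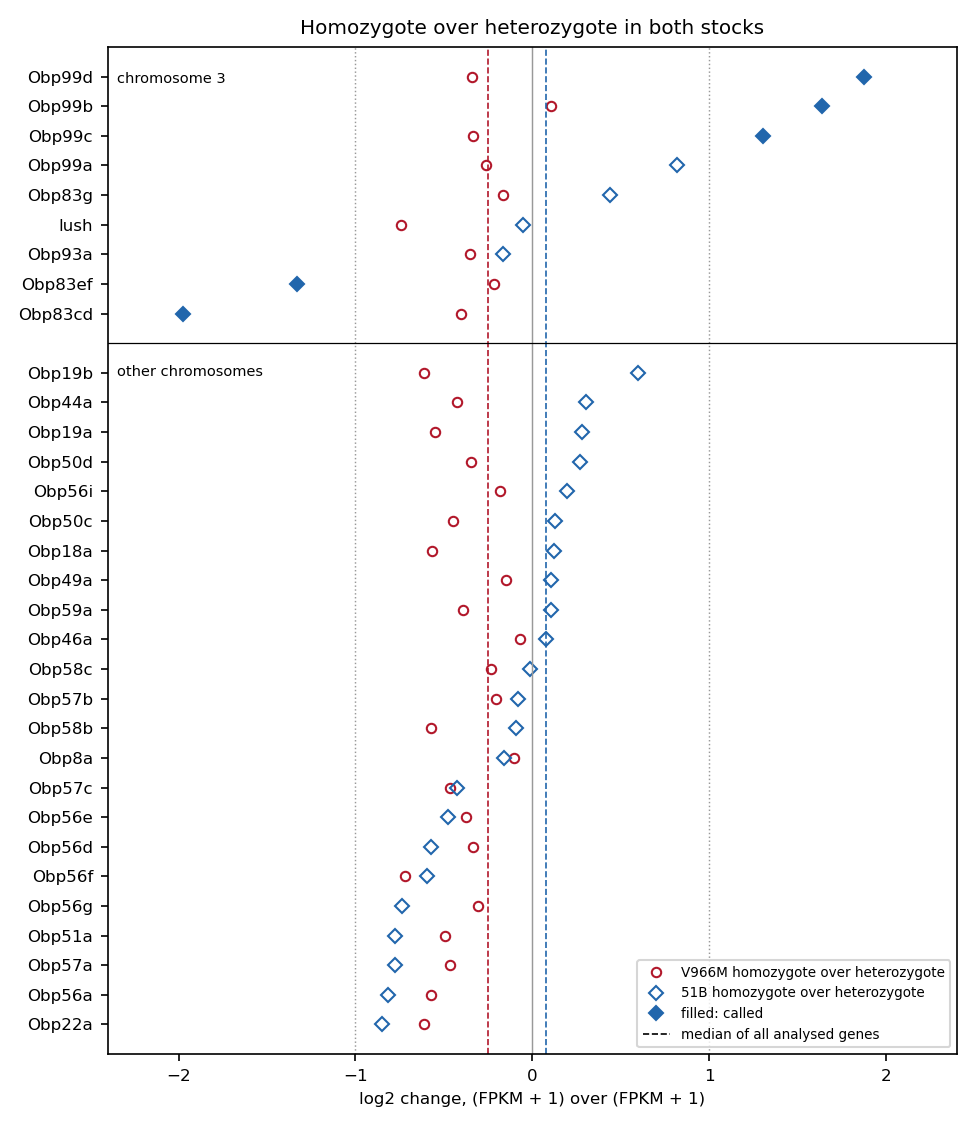
Log2 change of homozygote over heterozygote for each analysed member, chromosome 3 above and other chromosomes below, with circles for V966M and diamonds for 51B, filled where called. Dashed lines give the median of all genes, -0.25 in V966M and 0.07 in 51B, and the 5 filled points are Obp99d, Obp99b, Obp99c, Obp83ef and Obp83cd.

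Outside chromosome 3, the lowest 51B changes were those of Obp22a, a seminal fluid gene (-0.85), Obp56a (-0.82), Obp51a (-0.77), Obp57a (-0.77) and Obp56g (-0.74). Of these, intervals did not overlap in Obp51a and Obp56g. Obp56g had 317 FPKM (302 to 332) in the 51B homozygote and 529 FPKM (511 to 547) in the 51B heterozygote. It had 587 FPKM (568 to 607) in the V966M homozygote and 727 FPKM (693 to 761) in the V966M heterozygote. The 4 intervals of Obp56g did not overlap as deposited. With rescaled bounds, those of the V966M homozygote and heterozygote overlapped each other. The intervals of Obp56g were the narrowest of the analysed members. Their half-width was 3.27% to 4.75% of the value, where the median member had 24.4% to 37.9%. Obp51a, another seminal fluid gene, had 69.3 FPKM (48.6 to 89.9) in the 51B homozygote and 119 FPKM (100.4 to 138) in the 51B heterozygote. It shares its locus with hbs.

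At the other end stood Obp19b, a taste gene on X, with 66.1 FPKM (47.2 to 84.9) in the 51B homozygote and 43.3 FPKM (36.5 to 50.1) in the 51B heterozygote, a log2 change of 0.60 with overlapping intervals. Obp44a had 732 FPKM (488 to 977) in the 51B homozygote and 594 FPKM (492 to 695) in the 51B heterozygote, also overlapping.

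In the V966M stock no member was called. Of the 32 members, 0 were higher, against 0.0644% of all genes, and 0 were lower, against 0.35%. Intervals did not overlap in 2 members, against 8.49% of all genes: Obp19b, with 43.1 FPKM (36.2 to 49.99) in the homozygote and 66.3 FPKM (50.8 to 81.8) in the heterozygote, and Obp56g, given above. Their log2 changes were -0.61 and -0.31. Of all genes, 907 had intervals apart and were lower, and 16 had intervals apart and were higher. Of the 32 changes, 31 were below 0 with a median of -0.36, on a scale on which all genes had a median of -0.25. The genotypes were then rescaled, each by the median over genes of its ratio to the geometric mean. After this, 9 of the 32 were above 0, the members' median was -0.15 and that of all genes was -0.00. With bounds rescaled in the same way, the intervals of Obp19b and of Obp56g overlapped between the V966M genotypes.

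Changes in V966M ran from -0.74, in lush, to 0.11, in Obp99b. lush had 5.35 FPKM (3.99 to 6.71) in the V966M homozygote and 9.61 FPKM (6.57 to 12.6) in the V966M heterozygote, whose intervals just overlapped. On chromosome 3 the 9 members had a median of -0.34, beside -0.24 for all genes there, and elsewhere the 23 members had a median of -0.42, beside -0.25. None of the 5 genes called in 51B was called in V966M: their log2 changes were -0.34 in Obp99d, 0.11 in Obp99b, -0.34 in Obp99c, -0.40 in Obp83cd and -0.21 in Obp83ef. The difference between stocks in these changes was not tested.

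The stocks were next set side by side at the same zygosity. These comparisons share their samples with those above and are not independent of them. Between homozygotes, V966M had more than 51B of 6 members, against 2.75% of all genes, and less of 3, against 2.78%. The 6 were Obp83cd, Obp83ef, Obp57a, Obp58c, Obp56d and Obp56a, and the 3 were Obp99d, Obp99a and Obp99b. Intervals did not overlap in 13 of 32 members, against 18.2% of all genes. After rescaling, Obp56e and Obp56g joined the higher members and Obp99b was no longer called, which gave 8 higher and 2 lower. Calls over all genes also moved with rescaling, to 362 higher and 198 lower of 10868.

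Between heterozygotes, V966M had more than 51B of 4 members, Obp58c, lush, Obp57a and Obp56d, against 2.73% of all genes, and less of 0, against 0.304%. Intervals did not overlap in 10 of 32 members, against 21.0% of all genes. The members' median log2 difference was 0.44 and that of all genes 0.26. After rescaling these medians were 0.18 and 0.02, and Obp58c alone remained called. Of the 10868 genes analysed after rescaling, 134 were higher and 79 lower. Obp58c passed the minimum mean of 1 FPKM only through its V966M levels, given next.

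Obp58c, a Plus-C member on 2R, was higher in V966M at both zygosities. Its mean of 1.04 FPKM passed the minimum of 1 FPKM only through V966M. Its place among the analysed members thus depended on the stock where it was high, and a minimum of 5 FPKM left it out. It had 1.72 FPKM (0.987 to 2.46) in the V966M homozygote and 2.20 FPKM (1.18 to 3.21) in the V966M heterozygote. The 51B homozygote had 0.107 FPKM (0 to 0.243) and the 51B heterozygote 0.118 FPKM (0 to 0.322). The V966M intervals lay above both 51B intervals, and the V966M level was 16.0-fold the 51B level between homozygotes and 18.6-fold between heterozygotes. The 51B levels are close to 0, so these ratios are imprecise, and on the log2(FPKM + 1) scale the differences were 1.30 and 1.52. Its cluster neighbour Obp58b had 0.843 FPKM in the V966M homozygote and 1.74 FPKM in the V966M heterozygote, against 0.846 and 0.966 FPKM in the 51B homozygote and heterozygote, with overlapping intervals, and Obp58d had at most 0.147 FPKM. Of 5 other analysed genes within 25 kb of Obp58c, 0 were called between heterozygotes or between homozygotes. Among all genes, 2.73% were higher in V966M and 0.304% lower between heterozygotes, and 2.75% and 2.78% between homozygotes.

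Obp57a had 8.80 FPKM (6.43 to 11.2) in the V966M homozygote and 12.5 FPKM (8.24 to 16.8) in the V966M heterozygote, against 2.86 FPKM (1.42 to 4.30) in the 51B homozygote and 5.60 FPKM (3.80 to 7.40) in the 51B heterozygote. Its cluster neighbours were not called: Obp57b had between 10.1 and 15.0 FPKM and Obp57c between 35.7 and 50.3 FPKM over the 4 genotypes, and both share a locus. Of 3 other analysed genes within 25 kb, CG13422 and CG30151 were higher in V966M in both comparisons, and lower in the 51B homozygote than in its heterozygote. The shares of all genes were 2.73% higher between heterozygotes, 2.75% higher between homozygotes and 1.12% lower in the 51B homozygote. After rescaling, CG30151 was no longer called between heterozygotes. CG13422 had 183 FPKM in the V966M homozygote and 108 FPKM in the V966M heterozygote, against 8.76 FPKM in the 51B homozygote and 39.8 FPKM in the 51B heterozygote. CG30151 had 7.66 and 7.45 FPKM in the V966M homozygote and heterozygote, against 1.05 and 3.20 FPKM in the 51B homozygote and heterozygote.

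Obp56d, a member made in many sense organs, had 67.6 FPKM (56.8 to 78.4) in the V966M homozygote and 85.4 FPKM (65.1 to 106) in the V966M heterozygote. It had 27.9 FPKM (19.3 to 36.5) in the 51B homozygote and 42.1 FPKM (35.2 to 49.0) in the 51B heterozygote. Its neighbour Obp56a had 7.67 FPKM (5.69 to 9.65) in the V966M homozygote and 11.9 FPKM (8.06 to 15.7) in the V966M heterozygote, while the 51B homozygote had 2.95 FPKM (1.55 to 4.35) and the 51B heterozygote 5.96 FPKM (4.27 to 7.65). In both genes the V966M levels stood above the 51B level of the same zygosity with intervals apart as deposited. With rescaled bounds, those of Obp56a overlapped between heterozygotes. Obp56e had 39.6 FPKM (32.6 to 46.6) in the V966M homozygote and 51.6 FPKM (38.5 to 64.6) in the V966M heterozygote, against 20.7 FPKM (13.9 to 27.5) in the 51B homozygote and 29.2 FPKM (23.99 to 34.4) in the 51B heterozygote. In Obp56e and in Obp56g, given above, V966M was also above 51B at both zygosities with intervals apart, short of a call as deposited. With rescaled bounds, those of Obp56e overlapped between heterozygotes. Obp56f had 6.41 and 11.2 FPKM in the V966M homozygote and heterozygote, against 6.43 and 10.2 FPKM in the 51B homozygote and heterozygote, with overlapping intervals between stocks. Of the rest of the cluster, Obp56i had 3.57 FPKM in the V966M homozygote and 5.78 FPKM in the 51B homozygote, the opposite order, with overlapping intervals, and Obp56b and Obp56c had at most 0.350 FPKM. Obp56h, just under the minimum mean and so not analysed, had 1.41 FPKM in the V966M homozygote and 0.339 FPKM in the 51B homozygote. Its deposited intervals, given above, were apart between homozygotes and overlapped between heterozygotes.

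**Figure D4:**
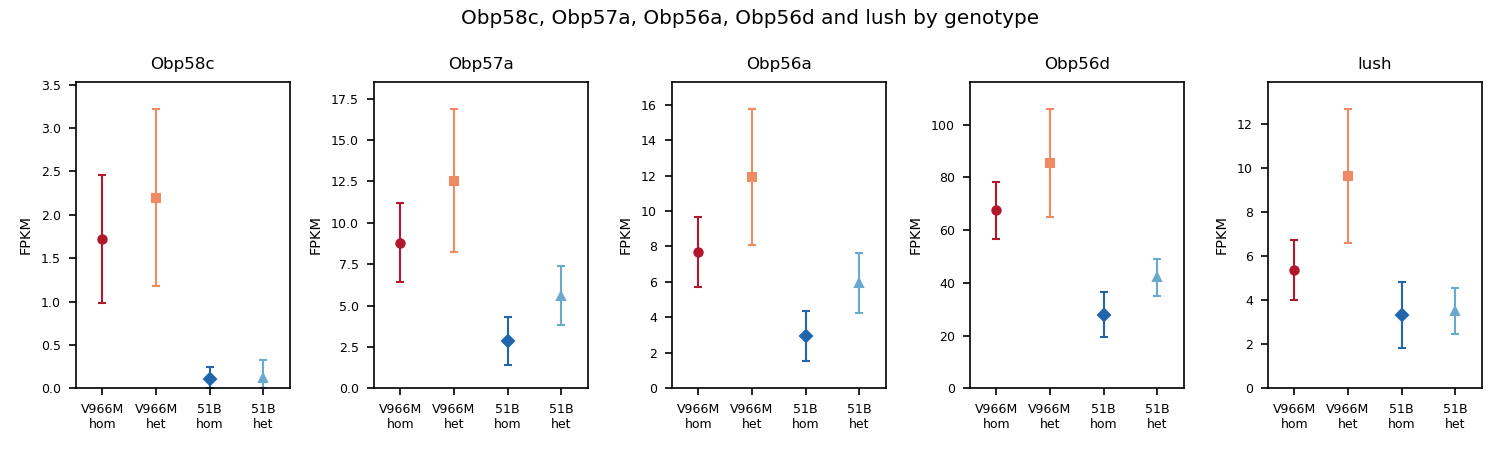
FPKM by genotype, with 1 point per genotype and bars for the deposited interval, for Obp58c, Obp57a, Obp56a, Obp56d and lush. Both V966M genotypes lie above both 51B genotypes in all 5 genes, and Obp58c is near 0 in 51B, at 0.107 and 0.118 FPKM.

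lush was higher in the V966M heterozygote than in the 51B heterozygote, which had 3.496 FPKM (2.46 to 4.53), a log2 difference of 1.24. Between homozygotes its intervals overlapped, with 5.35 FPKM in V966M and 3.34 FPKM (1.85 to 4.83) in 51B. After rescaling, the difference between heterozygotes was just under the threshold and not called.

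By role, the 7 members known from seminal fluid (Obp8a, Obp22a, Obp51a, Obp56e, Obp56f, Obp56g and Obp56i) had a median log2 change of -0.60 in 51B, with 6 of 7 below 0, 0 called and intervals apart in 2. Their summed level was 429 FPKM in the 51B homozygote and 707 FPKM in the 51B heterozygote, while the V966M homozygote had 776 FPKM and the V966M heterozygote 989 FPKM. Most of each sum came from Obp56g alone, with 317 and 529 FPKM in the 51B homozygote and heterozygote. In the V966M homozygote and heterozygote Obp56g had 587 and 727 FPKM. Over all genes the median in 51B was 0.07, with 4424 of 10872 below 0, 1.12% lower and intervals apart in 12.0%. Genes of the seminal fluid and male tract list are given beside them. Of 16 analysed, 13 were below 0 in 51B with a median of -0.49, intervals were apart in 3, and 1, the ejaculatory bulb protein gene PebII, was lower, with 123 FPKM (88.4 to 158) in the 51B homozygote and 259 FPKM (221 to 298) in the 51B heterozygote. The summed level of the 17 listed genes was 1503 FPKM in the 51B homozygote and 2135 FPKM in the 51B heterozygote, while the V966M homozygote had 2441 FPKM and the V966M heterozygote 3042 FPKM. In V966M the members' median was -0.37, with 7 of 7 below 0. The listed genes had -0.45 there, with 15 of 16 below 0, and all genes -0.25, with 10184 of 10872 below 0. After rescaling, the members' median was -0.10 in V966M and -0.71 in 51B. That of the listed genes was -0.18 in V966M and -0.61 in 51B. In these bulk samples fewer cells of a type and less RNA per cell cannot be told apart. The part of the male tract genes in the values of the seminal fluid members was not tested.

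**Figure D5:**
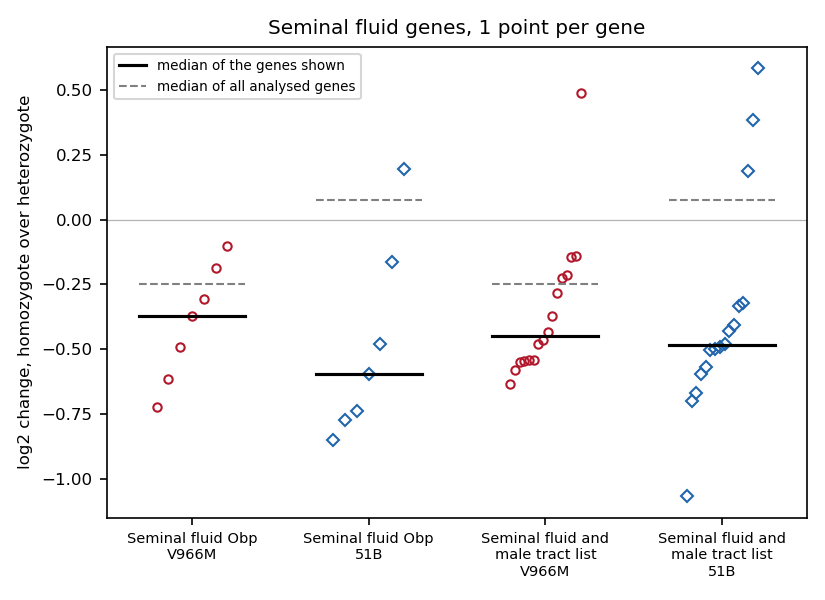
Log2 change of homozygote over heterozygote, 1 point per gene, for the 7 seminal fluid members and the 16 analysed genes of the seminal fluid and male tract list, with circles for V966M and diamonds for 51B. Solid bars are the medians of the genes shown, -0.60 for the members and -0.49 for the list in 51B, and -0.37 and -0.45 in V966M. Dashed bars are the medians of all genes.

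Of 10 family genes abundant in the antenna, 5 carry a member symbol in the table (lush, Obp19a, Obp56d, Obp59a and Obp99a) and 5 an older one, which the symbol rule did not take: Pbprp5 for Obp28a, Pbprp1 for Obp69a, Pbprp3 for Obp83a, Os-E for Obp83b and Pbprp4 for Obp84a. In 51B their median log2 change was 0.02, with 5 above and 5 below 0, and none was called. In V966M all 10 were below 0, as were 10184 of the 10872 genes, and their median was -0.56 beside -0.25 for all genes. After rescaling the medians were -0.32 and -0.00. None was called in V966M, and deposited intervals did not overlap in 2, against 8.49% of all genes. With rescaled bounds, the intervals of these 2, Pbprp3 and Pbprp5, overlapped. Pbprp3 had 19.3 FPKM (15.9 to 22.8) in the V966M homozygote and 32.1 FPKM (24.1 to 40.2) in the V966M heterozygote. Pbprp5 had 21.2 FPKM (17.1 to 25.2) in the V966M homozygote and 35.2 FPKM (26.2 to 44.3) in the V966M heterozygote. With Pbprp2 (Obp19d), which averaged 207 FPKM, and CG13027 (Obp73a), which averaged 0.128 FPKM, the table held 7 family genes under other symbols, and 0 of them were called in any comparison. Since at most 2.78% of all genes were called in 1 direction of a comparison, 0 calls among so few genes say little.

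Receptor genes of smell and taste were mostly too low to follow. Of 59 olfactory receptor genes, 5 had a mean of at least 1 FPKM and quantified status, and 0 were called in any comparison. At most 2.78% of all genes were called in 1 direction of a comparison, so 0 calls in lists this short say little. Their co-receptor gene Or83b had 4.93 FPKM in the 51B homozygote and 3.15 FPKM in the 51B heterozygote, while the V966M homozygote had 3.47 FPKM and the V966M heterozygote 4.66 FPKM. Of 61 gustatory receptor genes 2 were analysed, with 0 called. Of 59 ionotropic receptor genes 3 were analysed, and Ir75d, an olfactory receptor gene that shares its locus with 2 other genes, was lower in the 51B homozygote, with 0.297 FPKM (0.0567 to 0.538), than in the 51B heterozygote, with 2.08 FPKM (1.33 to 2.84). It was also lower there than in the V966M homozygote, which had 1.64 FPKM (1.01 to 2.28). Of all genes, 1.12% were lower in the 51B homozygote than in its heterozygote, and 2.75% were higher in V966M between homozygotes.

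Of 11 analysed genes of other chemosensory proteins, 0 were called between homozygote and heterozygote in either stock. Between heterozygotes, V966M had more of Est-6, a seminal fluid esterase that is also antennal, and of antdh, an antennal dehydrogenase. Est-6 had 172 FPKM in the V966M heterozygote and 82.99 FPKM in the 51B heterozygote, and was also higher in V966M between homozygotes. After rescaling, Est-6 was no longer called between heterozygotes, where 2.73% of all genes were higher as deposited. For antdh the levels were 69.4 FPKM in the V966M heterozygote and 24.9 FPKM in the 51B heterozygote.

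Since Obp99b is known from fat tissue, sex-biased fat body genes are given beside it. Of 4 analysed, 1 was lower in the 51B homozygote, against 1.12% of all genes. This was fit, with 0.449 FPKM (0.110 to 0.787) against 1.95 FPKM (1.11 to 2.80) in the 51B heterozygote. The gene to (takeout), a secreted ligand carrier, had 8.001 FPKM (5.19 to 10.8) in the 51B homozygote and 4.30 FPKM (3.19 to 5.42) in the 51B heterozygote, with overlapping intervals. It was higher in the V966M heterozygote, with 10.1 FPKM (7.14 to 13.0), than in the 51B heterozygote, a call that was lost after rescaling. The male-biased gene sxe2 had 5.32 FPKM in the 51B homozygote and 8.49 FPKM in the 51B heterozygote. The list's median log2 change in 51B was -0.29, and its part in the level of Obp99b was not tested. Glial genes, given beside Obp44a, had a median of 0.29 over 4 analysed genes with 0 called and intervals apart in 0. Of 6 neuronal genes, 3 had status OK and were analysed. They had a median of 0.60, with 3 above 0, 0 called and intervals apart in 2, against 12.0% of all genes.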

How the data were processed

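FPKM values and the bounds of an interval around them, for 13990 genes and 4 genotypes of adult males, were made by the authors, per the file headers. TopHat, Cufflinks and genome build dm3 were used, per the submitters' processing notes; of their versions, of the annotation and of strand, nothing is given in the sources used here. Each genotype was sequenced 2 times according to the design text, but the table holds 1 value per genotype, so n was 1, with no test and no p-value. The interval's level is not stated.

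From these values, genes quantified with status OK in every genotype (13197) and with a mean of at least 1 FPKM were analysed (10872). Changes are log2((FPKM + 1)/(FPKM + 1)), which understates low genes. A call needed a change of at least 2-fold and deposited intervals that did not overlap. Counts of intervals that did not overlap use the bounds as deposited. Rescaling divided the bounds by the same factor as the values. Coordinates follow the deposited loci on dm3 and count from 1. RefSeq synonyms, of a later build, served only to find family genes under older symbols: of 52 family symbols, 44 were in the table as such and 7 under another name, and Obp50b was not analysed here. Protein and promoter sequences were not used here.

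Named with values are members called in a comparison, their tandem clusters, lush and the 5 highest members, with called genes of the marker lists and within 25 kb. Some cluster members, among them those with a mean under 1 FPKM other than Obp56h, are given by a range or a maximum only. Obp56h, Obp22a, Obp49a, Obp51a, Obp19b, Pbprp3, Pbprp5, sxe2 and Or83b were added after their values were seen. Members and lists were chosen with earlier results of these data known. Alternatives were rescaling by median ratios (factors of 0.936 for the V966M homozygote, 1.13 for the V966M heterozygote, 1.02 for the 51B homozygote and 0.932 for the 51B heterozygote), pseudocounts of 0.1 and 5 FPKM, a mean of at least 5 FPKM or no minimum, no genes sharing a locus, a 1.5-fold threshold, no use of intervals and, added after seeing the data, older symbols. The call rule was run on simulated data without noise, with large changes in genes of high level and narrow intervals. This checks the code, and not errors between libraries or calls near the threshold. Python 3.11.15, numpy 2.4.6, pandas 2.3.3 and matplotlib 3.10.9 were used.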

Additional observations from a re-analysis of the deposited data

Results flagged for a closer look

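Obp99c and Obp99d were higher in the 51B homozygote than in its heterozygote and went the other way in V966M, as deposited and after rescaling. The log2 change in 51B minus that in V966M was 1.64 for Obp99c and 2.21 for Obp99d. This difference was not tested, since each genotype had 1 value, and in V966M the intervals of both genes overlapped. The V966M change was -0.34 in each gene as deposited, where all genes had a median of -0.25, and after rescaling -0.06 in Obp99c and -0.09 in Obp99d.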

How the results depend on the processing

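In 51B, Obp99b and Obp99d were called under all 8 alternatives and with older symbols added. Of the 5 called members, 2 were left without genes sharing a locus, and a 1.5-fold threshold gave 8. In V966M the count of 0 became 1 (Obp19b, lower) at 1.5-fold and stayed 0 otherwise. Between heterozygotes 4 members became 1 after rescaling, 0 with a pseudocount of 5 FPKM and 9 at 1.5-fold. Between homozygotes 9 became 5 with a pseudocount of 5 FPKM. Calls over all genes were not counted with other pseudocounts, minimum levels or thresholds, without genes sharing a locus or without intervals. The members' counts under those settings therefore have no share of all genes beside them. The median log2 change on chromosome 3 in 51B, 0.44, was 0.31 after rescaling, 0.81 with a mean of at least 5 FPKM, 0.19 with no minimum, 0.63 without genes sharing a locus and -0.052 with older symbols added; each alternative but rescaling changes which members enter. On other chromosomes it became -0.43 with a mean of at least 5 FPKM. In V966M the median on chromosome 3 was -0.063 and that elsewhere -0.19 after rescaling, and -0.32 elsewhere with a pseudocount of 5 FPKM. Rescaling put the median of all genes at -0.04 in 51B (0.07 as deposited), 0.02 between heterozygotes (0.26) and -0.01 between homozygotes (-0.11). Calls over all genes became 13 higher and 8 lower in V966M, 140 and 158 in 51B, 134 and 79 between heterozygotes and 362 and 198 between homozygotes. No paired analysis was possible because the table has 1 value per genotype. Without the use of intervals the counts of called members were the same in all 4 comparisons. Read depth is unknown, so what it limits cannot be given.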
